A study of Mus musculus with 4 samples.

Results

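The strong NR6A1 binding peaks found in replicate 1 alone were 1293 of the 37667 peaks that the deposited lists of both replicates held. They were chosen from the peak lists themselves: a replicate 1 peak was taken when the authors' score was 1000 or more and when it overlapped no replicate 2 peak by as much as 1 bp. These 1293 are called members here. The score and the missing partner are therefore properties that chose these peaks, and they are described here without a test. Among replicate 1 peaks of all scores, 57.3% had no partner, and among the 3424 with a score of 1000 or more the 1293 made up 37.8%. The corresponding figures for replicate 2 were 44.0% of all its peaks and 12.4% of its 2264 strong peaks.

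Chromatin immunoprecipitation followed by sequencing recovers DNA cross-linked to a protein, and a peak is a stretch where fragments pile up above background. The study used immortalized murine mesenchymal stem cells (MSCs) of the C57BL/6 strain, a monoclonal line with floxed Dicer alleles (Dicer f/f) called Dicer wild type. The cells had been infected with a puromycin-selectable retrovirus carrying Flag-HA-NR6A1 (2 libraries) or with the vector (2 libraries), and an anti-HA antibody was used throughout. The signal thus comes from a tagged, retrovirally expressed protein in a line derived from 1 clone, and the vector libraries were not used here, so no background of the antibody is set beside the peaks. The labels do not say whether the replicates came from separate cultures.

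NR6A1, also called germ cell nuclear factor, is an orphan nuclear receptor: a DNA-binding transcription factor with no established ligand. It acts mostly as a repressor, binds a direct repeat of the nuclear receptor half-site with no spacer or an extended half-site, and is best known for silencing pluripotency genes as embryonic cells differentiate. The series title names let-7, a microRNA, as a repressor of Nr6a1. Genes and sequences at the peaks are not given, because positions are on build mm9 and no genome or annotation of that build was used here.

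The score is the authors' value for each peak. It was read as the MACS log-transformed p-value, in which a higher score stands for a smaller p-value, and it depends on the depth and background of its own library. Both lists began just above 200, so a member can have no replicate 2 enrichment or one below that minimum. These cannot be told apart from the lists. For 8 of the 1293, a listed replicate 2 peak lay within 100 bp, so the missing overlap also depends on where the peak bounds were drawn. Read depth is unknown. A value of exactly 3100 was shared by many peaks and is treated as a ceiling, at and above which no order of strength was read.

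The 1293 replicate-1-only strong peaks spanned the same range of scores as strong peaks with a partner, with a lower median. Their median score was 1389 (quartiles 1160 and 1811), against 1531 (1207 and 2139) for the 2131 strong replicate 1 peaks that had a partner. Scores of 3100 or more were held by 71 of the former and 194 of the latter. In the lowest band, 1000 to below 1500, 760 of 1786 replicate 1 peaks had no partner, or 42.6% (95% Wilson interval 40.3 to 44.9%). The share was 37.2% (33.8 to 40.7%) from 1500 to 2000 and 29.8% (25.5 to 34.4%) from 2000 to 2500. It was 28.6% (23.0 to 34.9%) from 2500 to 3100 and 26.8% (21.8 to 32.4%) at 3100 or more. The shares were lower at high scores, yet the last 3 bands lay within each other's intervals. In replicate 2 the share without a partner went from 16.7% (14.6 to 18.95%) in the lowest band to 2.37% (1.02 to 5.43%) at 3100 or more. Such intervals reflect the number of peaks counted, and the spread between cultures is not part of them.

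**Figure D1:**
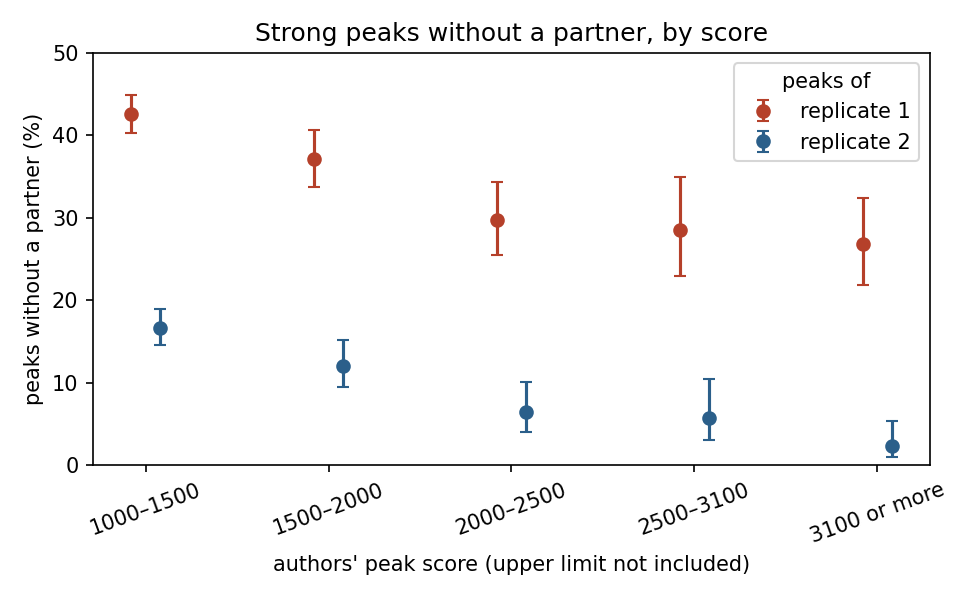
Share of strong peaks without a partner in the other list (percent, vertical axis) by band of the authors' score (horizontal axis), for replicate 1 and replicate 2; bars are 95% Wilson intervals. Replicate 1 stands between 26.8% and 42.6%, and replicate 2 between 2.37% and 16.7%.

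The score limit cut through a continuous range. The 3 peaks just inside it lay on chromosome 2 at 79358173 to 79359024, with a score of 1000.16, on chromosome 5 at 143825228 to 143825807, with 1000.37, and on chromosome 6 at 82967112 to 82967761, with 1001.23. The 3 just outside lay on chromosome 11 at 79306729 to 79307294, with 999.9, on chromosome 3 at 60589317 to 60589968, with 999.79, and on chromosome 5 at 24606769 to 24607422, with 999.26. Between 1000 and 1100 there were 233 partnerless replicate 1 peaks, and between 900 and 1000 there were 306.

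The members were close in width to strong peaks seen in both replicates. Their median width was 781 bp (quartiles 679 and 948, range 414 to 2006), against 823 bp (684 and 1008) for strong peaks with a partner, and together they covered 1075 kb. Width rises with score, and within score bands the medians lay close: 728 bp without and 729 bp with a partner from 1000 to 1500, 859 and 841 bp from 1500 to 2000, and 945 and 930 bp from 2500 to 3100. At 3100 or more the medians were 997 and 1090 bp. The 280 strong replicate 2 peaks without a partner had a median of 784 bp. Width comes from the same reads as the score, so it was not tested.

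At the ceiling, the 71 peaks with no partner were spread over 17 chromosomes. Of these, 65 had exactly 3100 and 6 had higher scores, up to 3199.4. Their widths ran from 776 to 2006 bp, and their nearest replicate 2 peak was a median of 28.9 kb away (quartiles 10.7 and 56.5). It lay within 10 kb for 17 of them and beyond 100 kb for 13.

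The 10 widest of these ceiling peaks show how varied their surroundings were; each had a replicate 1 score of 3100. The widest, 2006 bp on chromosome 10 at 93101347 to 93103352, had its nearest replicate 2 peak 20.6 kb away, with a score of 793.94 and a partner of its own. Within 100 kb of it lay 4 other replicate 1 peaks and 5 replicate 2 peaks, so both lists were populated there.

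The second, 1954 bp on chromosome 3 at 136951228 to 136953181, had its nearest replicate 2 peak 136 kb away. Its nearest replicate 1 neighbour, 19.9 kb away, had a score of 2975.74 and no partner either, so these are strong peaks that were missing side by side. The third, 1757 bp on chromosome 8 at 13461785 to 13463541, had 11 replicate 1 and 4 replicate 2 peaks within 100 kb, and the nearest replicate 2 peak stood at 3100. That replicate 2 peak was 43.0 kb away, so replicate 2 had a ceiling peak in the same neighbourhood.

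A pair of the widest lay beside a replicate 2 peak that fell outside them. The one on chromosome 17 at 84284924 to 84286421 (1498 bp) was 74 bp from a replicate 2 peak with a score of 280.78. The one on chromosome 15 at 10675549 to 10676928 (1380 bp) was 2.35 kb from one with a score of 229.78. Both replicate 2 scores were near the list's minimum. The replicate 2 peak on chromosome 17 had no partner, whereas the one on chromosome 15 was already paired with another replicate 1 peak. On chromosome 3 at 49451951 to 49453512 (1562 bp), the nearest replicate 2 peak was 5.08 kb away and had a score of 922.28. On chromosome 2 at 91285951 to 91287502 (1552 bp), it was 28.9 kb away, with 11 replicate 1 and 2 replicate 2 peaks within 100 kb.

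The remaining 3 were each more than 50 kb from any replicate 2 peak. On chromosome 16 at 15516104 to 15517616 (1513 bp) the distance was 160 kb, on chromosome 1 at 172594667 to 172596155 (1489 bp) it was 101 kb, and on chromosome 4 at 53316405 to 53317840 (1436 bp) it was 74.6 kb. The first 2 of these had 3 and 4 other replicate 1 peaks within 100 kb and no replicate 2 peak, and the last had 5 and 4.

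Most replicate-1-only strong peaks lay more than 10 kb from the nearest replicate 2 peak, and most lay within 100 kb of one. The nearest replicate 2 peak lay a median of 30.5 kb away (95% binomial interval of the median 27.3 to 32.6 kb, quartiles 10.1 and 79.1 kb). It was within 100 bp for 8 of 1293, within 1 kb for 58 or 4.49%, within 10 kb for 320 or 24.7%, and within 100 kb for 1024 or 79.2%. For 269 peaks it was beyond 100 kb, and for 19 beyond 500 kb. The 11024 weaker replicate 1 peaks without a partner stood at a like distance, a median of 28.0 kb (26.9 to 29.0 kb). So did the 280 strong replicate 2 peaks without a partner, a median of 29.4 kb (21.7 to 35.2 kb) from the nearest replicate 1 peak. Strong replicate 1 peaks with a partner had their nearest other replicate 2 peak, the partner left out, at a median of 11.5 kb (10.4 to 12.6 kb). The nearest other replicate 1 peak was a median of 8.38 kb (7.54 to 9.29 kb) from the replicate-1-only peaks and 6.97 kb (6.26 to 7.65 kb) from those with a partner. The gap between both classes was therefore wide for replicate 2 peaks and small for replicate 1 peaks. The replicate 2 distance is bound up with how the peaks were chosen, and with 1 list for each replicate no test over samples could be made.

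**Figure D2:**
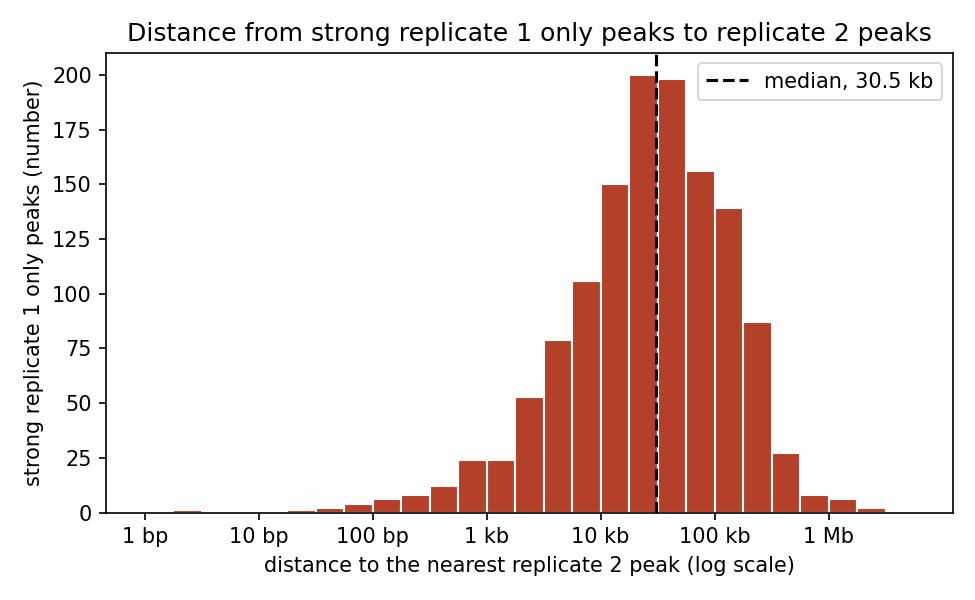
Number of replicate-1-only strong peaks (vertical axis) by distance to the nearest replicate 2 peak (horizontal axis, log scale); the dashed line is the median of 30.5 kb. Few lie within 1 kb (58 of 1293), and 269 lie beyond 100 kb.

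Near misses were few, and the replicate 2 peaks beside them had a median score somewhat below that of the whole replicate 2 list. The 58 members within 1 kb of a replicate 2 peak lay beside 57 different ones. Taken once for each member, the score of that peak had a median of 345 (quartiles 264 and 625), against 394 for the whole replicate 2 list. In 46 of the 58 cases that replicate 2 peak already had a replicate 1 partner, so the member was a second replicate 1 peak beside a site found in both lists. In the other 12 it had none, so the 2 lists held adjacent peaks that did not touch. The closest of all, on chromosome 10 at 16894208 to 16895098 with a score of 1366.73, was of this second kind: the replicate 2 peak at 16895101 to 16895661 had a score of 288.59. Over all 1293 members, the nearest replicate 2 peak had a partner for 874, or 67.6%. In the whole replicate 2 list, 44.0% of peaks had no partner.

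In 8 of the 58 cases the neighbouring replicate 2 peak was itself at 1000 or more, and all 8 had a replicate 1 partner. In the whole replicate 2 list, 2264 of 16160 peaks were at 1000 or more, a like share, and 12.4% of those had no partner. On chromosome 5, the member at 54343504 to 54344362 with a score of 1757.08 lay 24 bp from a replicate 2 peak with a score of 1681.98. At the highest of the 8 replicate 2 scores, on chromosome 14, the member at 69873073 to 69874409 with a score of 1540.29 lay 505 bp from a replicate 2 peak with a score of 2677.24. At these places replicate 1 had a further peak, which the replicate 2 peak overlapped. These 2 were named after their values were seen.

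The surroundings of the replicate-1-only strong peaks held fewer replicate 2 peaks for each replicate 1 peak, most of all close by. Within 5 kb of their midpoints there were 577 other replicate 1 peaks and 200 replicate 2 peaks, a ratio of 0.35. The ratio was 0.45 at 5 to 10 kb, 0.54 at 10 to 25 kb, 0.60 at 25 to 50 kb, 0.59 at 50 to 100 kb, 0.67 at 100 to 250 kb and 0.72 at 250 to 500 kb. Around strong peaks with a partner, with the partner itself left out, the ratio was 0.77 within 5 kb and 0.72 at 250 to 500 kb. Both classes thus met at the same ratio in the outermost ring. Around the weaker replicate 1 peaks without a partner the ratio was 0.52 within 5 kb and 0.71 in the outermost ring. The ring counts of neighbouring peaks overlap, since 1 peak can be counted around several members. Like the distance, these ratios are bound up with how the classes were chosen, and they were not tested.

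**Figure D3:**
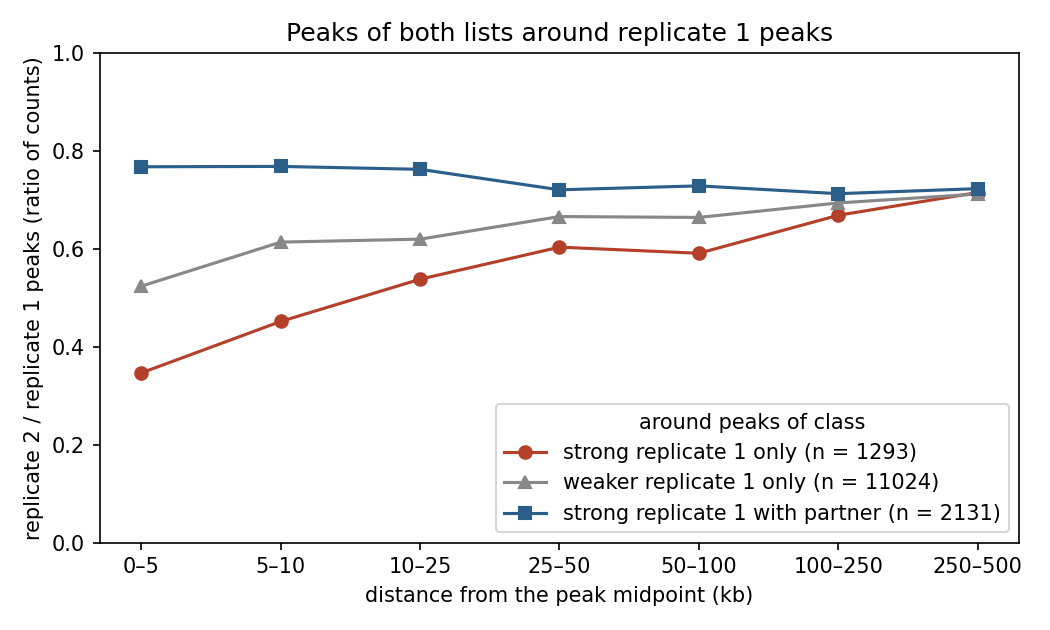
Ratio of replicate 2 to replicate 1 peak counts (vertical axis) in rings around the peak midpoint (horizontal axis, kb), for replicate-1-only strong peaks, weaker replicate 1 peaks without a partner and strong peaks with one; the peak and its partner are left out. The lines start at 0.35, 0.52 and 0.77 and meet at 0.71 to 0.72.

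The difference lay in the replicate 2 list more than in the replicate 1 list. The replicate 2 list is also the one whose overlap set the classes apart, so these counts are a description only. Within 100 kb, a replicate-1-only strong peak had a mean of 5.14 other replicate 1 peaks and 2.85 replicate 2 peaks. A strong peak with a partner had 5.55 and 4.10. No replicate 2 peak was found within 100 kb of 270 members, or 20.9% (95% Wilson interval 18.8 to 23.2%), against 9.10% (7.95 to 10.4%) of strong peaks with a partner. The weaker replicate 1 peaks without a partner were like the members in this, at 19.6% (18.9 to 20.4%) and a mean of 2.86 replicate 2 peaks. No other replicate 1 peak was found within 100 kb of 65 members, or 5.03% (3.96 to 6.36%), against 4.41% (3.62 to 5.37%). The picture was alike at like scores: from 1000 to below 1500 the ratio within 100 kb was 0.57 for members and 0.77 for peaks with a partner, from 1500 to 2500 it was 0.56 and 0.73, and from 2500 upward 0.46 and 0.68. Another member lay within 100 kb of 37.0% of members, and a member lay within that distance of 25.1% of strong peaks with a partner. The shares were 34.5% and 23.5% from 1000 to below 1500, and 36.5% and 26.2% from 1500 to 2500. From 2500 upward they were 53.4% (44.9 to 61.6%), from 71 of 133 members, and 27.5% (23.1 to 32.4%). The difference was widest in that band.

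The strong replicate 2 peaks without a partner, which were likewise chosen by the missing partner, showed a like pattern in the other direction. Around those 280 peaks the ratio of replicate 1 to replicate 2 peaks was 0.44 within 5 kb, 0.83 at 5 to 10 kb and 1.22 at 250 to 500 kb. Around strong replicate 2 peaks with a partner it was 0.91, 1.07 and 1.33. The innermost ring rested on 49 replicate 1 and 111 replicate 2 peaks for the former.

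The immediate replicate 1 neighbours of the members often lacked a partner too. Of the other replicate 1 peaks within 5 kb, 72.6% had no partner, against 57.3% in the whole list. The share was 63.5% around weaker replicate 1 peaks without a partner and 43.0% around strong peaks with one. Members were not particular in this. Around the 280 strong replicate 2 peaks without a partner, 73.0% of the other replicate 2 peaks within 5 kb had none, against 44.0% in that whole list. For 585 members, or 45.2% (42.6 to 48.0%), neither the replicate 1 peak before nor the one after had a partner. For 550 or 42.5% one of them had, and for 157 or 12.1% (10.5 to 14.0%) both had. The corresponding shares for strong peaks with a partner were 28.9%, 47.3% and 23.5% (21.8 to 25.4%). Thus 707 of the members stood next to at least 1 site found in both lists. The missing partner is also what chose the members, so these shares are a description and were not tested.

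Most members had no other member within 10 kb, yet the share with a member that close was larger than in the other replicate 1 classes. Another member was within 10 kb of 131, or 10.1% (8.60 to 11.9%). A member was within 10 kb of 4.74% (3.92 to 5.73%) of strong peaks with a partner. For weaker replicate 1 peaks the share was 5.12% (4.72 to 5.54%) without a partner and 2.78% (2.42 to 3.19%) with one. The first share is within 1 class and the others are between classes. How often strong peaks with a partner lay near each other was not counted. These shares are bound up with how the members were chosen, and they were not tested. Chained at gaps of at most 10 kb, 1155 members stood alone, 120 formed 60 pairs and 18 formed 6 groups of 3.

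The 5 most compact groups of 3 were small patches, 4 of which held no shared peak. On chromosome 11 at 99000182 to 99004371, the 3 scores were 2468.09, 2242 and 1637.83 within 4.19 kb. On chromosome 18 at 43666985 to 43673825 they were 1304.11, 3100 and 2207.29 within 6.84 kb. On chromosome 19 at 28590871 to 28600317 they were 2835.54, 2006.3 and 1283.49 within 9.45 kb. In these 3 groups, no replicate 2 peak lay between the first and the last member.

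The other two groups were wider. On chromosome 6 at 5805590 to 5816521 the scores were 1841.15, 1356.39 and 1931.82 within 10.9 kb, again with no replicate 2 peak. On chromosome 15 at 6961220 to 6973317 they were 1162.53, 1160.35 and 1707.71 within 12.1 kb. The last patch was mixed, with 5 replicate 1 peaks, of which 1 was shared, and 2 replicate 2 peaks.

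Some members shared longer stretches that were empty of replicate 2 peaks. Taking each interval between neighbouring replicate 2 peaks, 893 members, or 69.1%, were the single member in their interval. Intervals with 4 or more members numbered 11 and held 53 members. Of the 4 intervals with 6 members, the shortest was on chromosome 3 at 83250825 to 83544019, over 293 kb. Its members had scores of 1563.05, 1067.44, 1194.7, 2221.99, 1758.34 and 1284.94, among 12 replicate 1 peaks in all. Strong replicate 2 peaks stood at both ends, with scores of 2588.96 and 1948.25, and their replicate 1 partners had scores of 3149.96 and 1149.92. The empty stretch was therefore bounded by sites that were strong in both lists. These intervals were named after their values were seen.

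The longest of the 4 was on chromosome 10 at 102434843 to 106608821, over 4.17 Mb. It held 26 replicate 1 peaks, of which 6 were members with scores of 1312.41, 1066.98, 1723.39, 1825.92, 3100 and 1420.23. It was again bounded by strong replicate 2 peaks, with scores of 2062.48 and 2159.36, whose replicate 1 partners had scores of 3100 and 592.83. The other two with 6 members lay on chromosome 10 at 83007642 to 83748729, with 27 replicate 1 peaks and member scores from 1105.55 to 2064.45, and on chromosome 11 at 44765649 to 45609139, with 19 and from 1020.49 to 3001.64. Replicate 2 peaks at the ends of those intervals were weak, with scores from 211.21 to 608.1. A further interval on chromosome 15 at 6967816 to 7163539 held 4 members, 1 of them at 3100, among 16 replicate 1 peaks.

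**Figure D4:**
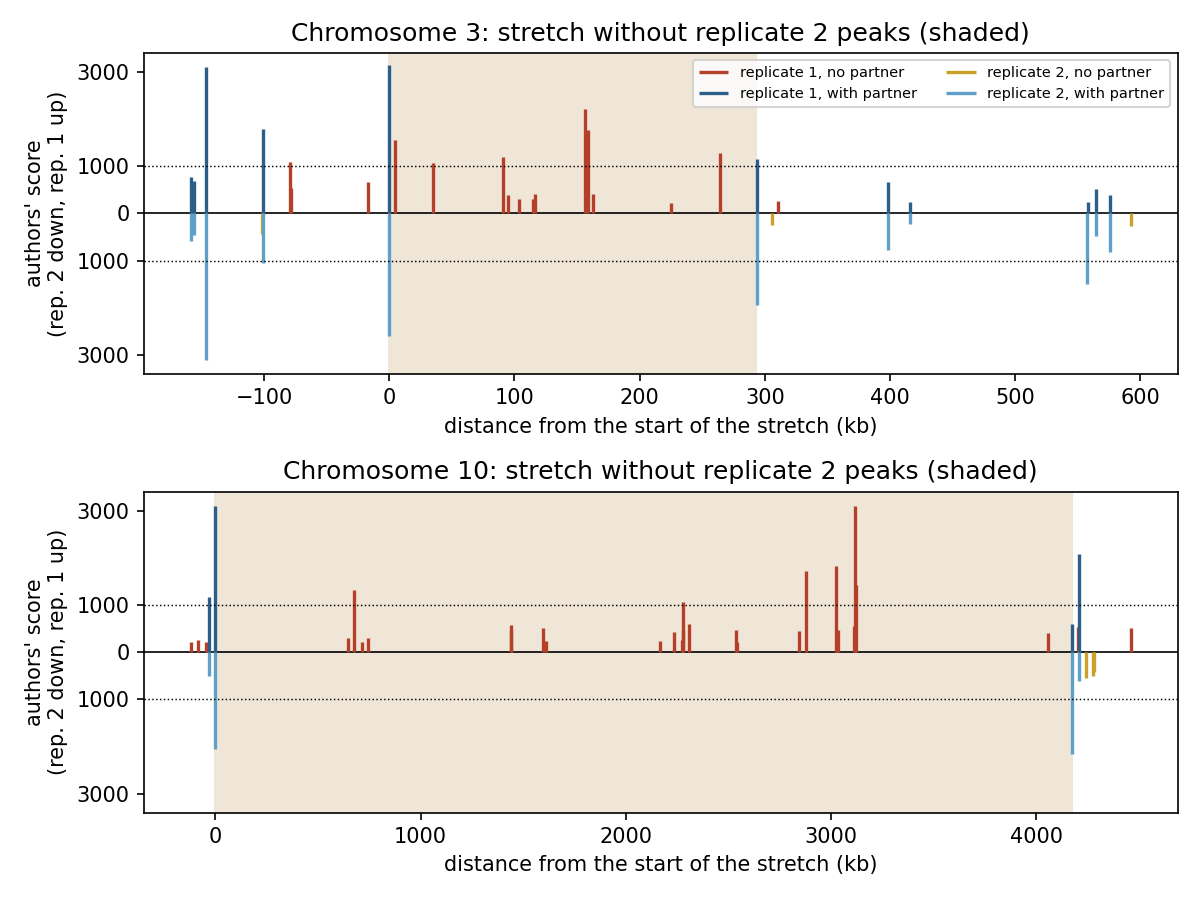
Authors' scores of replicate 1 peaks (upward) and replicate 2 peaks (downward) against the distance in kb from the start of 2 stretches on chromosomes 3 and 10 that hold 6 members each; shading marks the stretch without replicate 2 peaks, 293 kb and 4.17 Mb long, and dotted lines mark a score of 1000. The replicate 2 peaks at the edges are above 1000, with replicate 1 partners of 3149.96 and 1149.92 on chromosome 3 and of 3100 and 592.83 on chromosome 10, and the interior holds replicate 1 peaks alone.

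The 5 members farthest from any replicate 2 peak differed in how isolated they were in replicate 1. The farthest was on chromosome X at 54556160 to 54557099, with a score of 1030.3 and its nearest replicate 2 peak 2843 kb away. The second and the fourth were on chromosome 10 at 104713890 to 104714491 and at 105313749 to 105314862, with scores of 1066.98 and 1723.39 and distances of 1894 and 1294 kb. Both lay in the stretch of 4.17 Mb. The third was on chromosome 6 at 32886392 to 32887387, with a score of 1517.12 and a distance of 1355 kb. The fifth was on chromosome 14 at 88794686 to 88795331, with a score of 1029.84. It was alone in both lists, 978 kb from the next replicate 1 peak and 1215 kb from the nearest replicate 2 peak.

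Members occurred on every autosome and on X, and were dense where strong peaks with a partner were dense. A single member lay on an unplaced contig. Chromosome 10 had the most, 131, or 1.01 per Mb, and chromosome 12 had the fewest of the autosomes, 20, or 0.16 per Mb. Over the 19 autosomes, the density of members and that of strong peaks with a partner had a Spearman rho of 0.88, as a description of chromosomes that share the same 2 libraries. The share of strong replicate 1 peaks without a partner ran from 32.5% (26.5 to 39.2%) on chromosome 15 to 45.0% (36.0 to 54.3%) on chromosome 7 among autosomes. With a score limit of 2000 in place of 1000, which leaves fewer peaks on each, the lowest autosome share was 8.33% (1.49 to 35.4%). At the limit of 1000, the share on X was 45.8% (27.9 to 64.9%), from 11 of 24 peaks. The interval of each of the 20 chromosomes included the overall 37.8%. Some intervals were wide, as on X, and the overall share includes every chromosome, so differences between chromosomes could go unseen. The share was above that of replicate 2 on 20 of 20 chromosomes. These chromosomes come from the same 2 lists and are not separate comparisons. The lists also differ in length, 21507 peaks in replicate 1 against 16160 in replicate 2. On chromosome 10 the shares were 39.6% (34.5 to 44.9%) and 6.10% (3.34 to 10.9%), and on chromosome 12 they were 37.0% (25.4 to 50.4%) and 19.6% (11.0 to 32.5%). Across autosomes the shares of both replicates had a rho of 0.15, and the replicate 1 share and the ratio of peak numbers between the lists had a rho of 0.24.

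**Figure D5:**
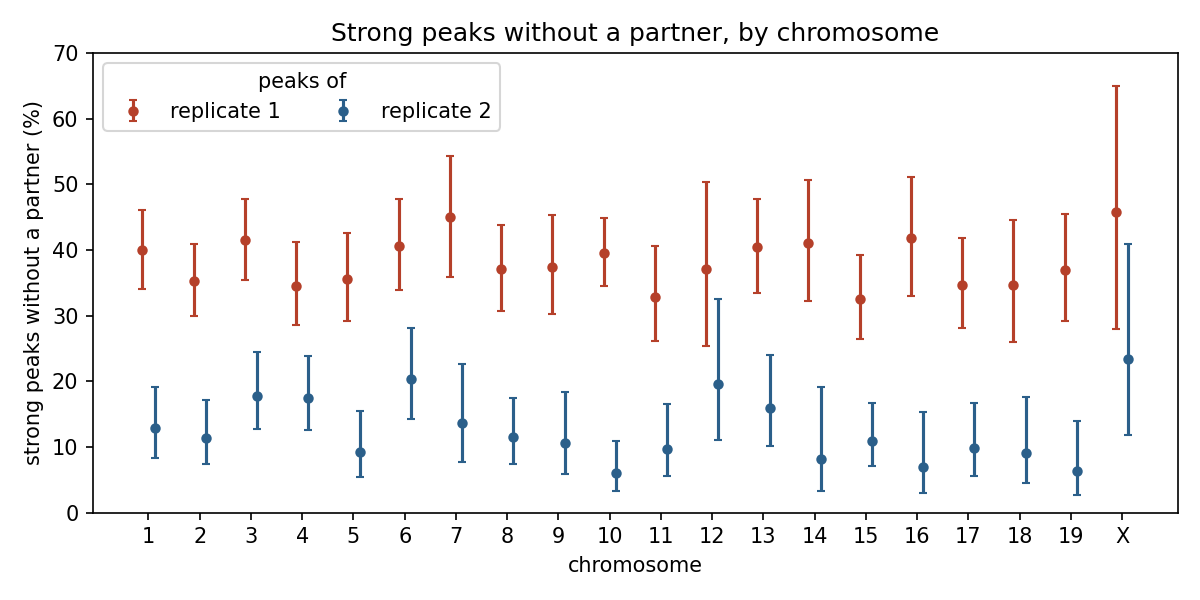
Share of strong peaks without a partner (percent, vertical axis) on each chromosome (horizontal axis) in replicate 1 and replicate 2; bars are 95% Wilson intervals. Replicate 1 stands between 32.5% and 45.8% and lies above replicate 2 on all 20 chromosomes.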

How the data were processed

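Each NR6A1 replicate has its own list of peaks from the authors. Per the submitters' processing notes, Bowtie 0.12.7, MACS and build mm9 were used, with no roles stated. The control library and the threshold are not given in the sources used here. The deposited score in each list is 1 value per peak, taken as the MACS log-transformed p-value from its range. Positions are given with the first base as 1. Overlap, distances and neighbours were computed with Python 3.11.15, numpy 2.4.6, pandas 2.3.3 and scipy 1.17.1. The member count was checked with bedtools 2.31.1, and the code was tested on simulated data. Distances count abutting peaks as 1 bp apart, and neighbours were counted by midpoint. Chromosome lengths of mm9 came from GenomeInfoDb 1.38.1. Wilson and binomial median intervals (95%) cover counting error only. No test over samples was possible with 1 list for each replicate. Motifs, sequences and genes were not analysed here for want of an mm9 genome. Named peaks are the 10 with the highest scores (3100 and above taken as equal, the widest first), the 5 largest groups at 10 kb, the 5 farthest from replicate 2 peaks, the 3 on either side of the limit and the closest to a replicate 2 peak. Alternatives changed the overlap, the score limit, the windows and the chromosomes. The members and these rules were chosen with earlier results of these data known.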

Additional observations from a re-analysis of the deposited data

How the results depend on the processing

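Across 16 alternative settings, 71 of 107 recomputed values stayed within the counting interval of the reported value (within 1.5 times for the number of peaks), and 36 moved. None of these values can reverse, since none is a signed difference. The restriction to scores of 1000 to below 1500, the omission of chromosome 10 and the whole of the ratio of replicate 2 to replicate 1 peaks were added after seeing the data. Leaving out peaks at or above 3100, sex chromosomes and contigs or chromosome 10, or extending replicate 2 peaks by 500 bp, moved none of the values computed.

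The definition of a partner moved the share of strong replicate 1 peaks without one, 37.8% as reported, to 36.1% with replicate 2 peaks extended by 1 kb, 41.0% with a reciprocal overlap of 50% and 52.0% with midpoints within 100 bp. With reciprocal overlap the median distance to a replicate 2 peak, 30.5 kb as reported, was 25.6 kb. With close midpoints it was 14.1 kb, the median width 839 bp, the share with another member within 10 kb 11.9%, the share with no replicate 2 peak within 100 kb 17.4% and the ratio of replicate 2 to replicate 1 peaks within 100 kb 0.60, against 0.55. These 2 settings add peaks that do overlap a replicate 2 peak.

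The score limit moves the number of peaks by construction. The share with another member within 10 kb depends on that number too, since only members at or above the limit were counted as neighbours. A limit of 750 gave 2175 peaks, a share of 41.0%, a median width of 725 bp and another member within 10 kb for 12.7%. A limit of 1500 gave 533, 32.5%, 897 bp and 6.57%. A limit of 2000 gave 252, 28.6%, 945 bp and 5.56%, with a distance of 32.9 kb and a ratio of 0.50. The lowest share on an autosome, 32.5% as reported, was 25.4% at 1500, 8.33% at 2000 and 41.1% with close midpoints, and the highest, 45.0% as reported, was 58.9% in the latter. As many top peaks as replicate 2 has at 1000 or more gave 799, a share of 35.3% and 851 bp. Another member lay within 5 kb of 6.19% and within 50 kb of 25.5%. No replicate 2 peak lay within 50 kb of 35.7% and within 500 kb of 1.47%, and the ratio was 0.53 and 0.65 in those windows.

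No paired analysis was possible because the vector libraries were not used, and settings without replicate 1 or without replicate 2 give no value. The planned work on sequence features and genes, with its alternatives, was not run for want of an mm9 genome. The lists hold no reads per peak, so a replicate 2 signal just under the minimum score is not visible.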
